A study of Homo sapiens with 7 samples.

Results

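The respiratory chain of the mitochondrial inner membrane is built from subunits of which most are encoded in the nucleus. The loci described here are those of the HepG2 expression table whose gene symbol begins with NDUF, UQCR, ATP5 or COX followed by a digit, or is SDHA, SDHB, SDHC or SDHD. The symbols alone chose them. Of 22118 named loci on main chromosomes, 106 met this rule, with 101 different symbols. They comprised 9 rows for core and 30 for accessory subunits of complex I, 4 for complex II, 10 for complex III, 19 for complex IV and 16 for complex V. A further 4 were listed as complex I assembly factors and 8 as complex IV assembly factors. The remaining 6 rows met the rule but were in none of these lists. They were the pseudogene ATP5EP2, the readthrough ATP5J2-PTCD1 in 2 rows, ATP5S, ATP5SL and COX4NB.

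HepG2 is a human liver cancer cell line, and it was studied here in untreated culture. Each assay had 1 sample, with 7 samples in all. Nucleosome positions came from native MNase-Seq, RNA levels from RNA-Seq, and ChIP-Seq was run for the activation marks H3K4me3, H3K9ac and H3K27ac and for the repressive marks H3K27me3 and H3K9me3. No groups and no replicate samples existed and no test was possible. Values are therefore given with exact binomial 95% intervals where they are shares, and these cover counting error only. RNA levels were deposited as FPKM, fragments scaled by transcript length and by library total, in 2 columns of the same sample, called run 1 and run 2. Nothing in the labels says whether the columns are separate cultures, libraries or sequencing runs. Neither the peak lists nor the expression table give read counts, so the depth behind a value is unknown. The marker genes fitted the label: 8 of 8 hepatocyte markers had an FPKM of at least 1, with ALB at 9933 and 10088, against 1 of 6 striated muscle markers (ACTA1, 3.97 and 3.45), 0 of 5 testis germ cell markers, 1 of 4 blood cell markers and 0 of 5 stromal or endothelial markers. In a bulk sample such as this one, fewer cells that express a gene and less RNA per cell cannot be told apart.

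Complex I oxidises NADH, complex II oxidises succinate, complex III passes electrons to cytochrome c, complex IV reduces oxygen, and complex V, the ATP synthase, uses the proton gradient to make ATP. A few subunits of complexes I, III, IV and V come from the mitochondrial genome, while the others are imported from the cytosol. Several subunits of complex IV exist as paralogs, of which one is found in most tissues and the other in muscle, testis or lung. NRF1, the ETS factor GABP (NRF-2), YY1 and CREB are known to bind promoters of respiratory genes. H3K4me3, H3K9ac and H3K27ac mark active promoters, whereas H3K27me3 and H3K9me3 mark repressed chromatin. A single nucleosome position that carries H3K4me3, H3K9ac and H3K27ac together is called trivalent.

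Stretches upstream of the start are shown first for 3 of the pairs that differed in expression, of which COX7B and COX7B2 stand for those in which neither member held NRF1, ETS or YY1 letters there, for a complex II subunit and for 2 of the c-ring genes of ATP synthase, since NRF1, the ETS factors, YY1 and CREB have known recognition letters. The sequences are RefSeq's, of the build GRCh38.p14, read 5′ to 3′ in the direction of the gene and covering 250 bases before the start. Capitals mark the letters GCGCATGC of the factor NRF1, AAGATGGC of YY1, TGACGTCA of CREB and GGGGCGGG of SP1, searched on both strands. They also mark the ETS family's recognition core, searched as CCGGAAG. The TATA box was searched for with the letters TATAAA, and both of these on either strand as well. None of these motifs is contained in another. COX6A1, the common form of subunit VIa, lies at chr12:120437863-120438112 on the plus strand, and COX6A2, the muscle form, at chr16:31428361-31428610 on the minus strand. COX8A and COX8C, the common and the testis form of subunit VIII, are at chr11:63974370-63974619 and chr14:93346932-93347181, both plus. COX7B and COX7B2, the common and the testis form of subunit VIIb, are at chrX:77899218-77899467, plus, and chr4:46909246-46909495, minus. SDHB, the iron-sulphur subunit of complex II, is at chr1:17054033-17054282 on the minus strand. ATP5G1 and ATP5G2 encode the same c-ring protein behind different import sequences, and are at chr17:48892537-48892786, plus, and chr12:53676084-53676333, minus.
COX6A1: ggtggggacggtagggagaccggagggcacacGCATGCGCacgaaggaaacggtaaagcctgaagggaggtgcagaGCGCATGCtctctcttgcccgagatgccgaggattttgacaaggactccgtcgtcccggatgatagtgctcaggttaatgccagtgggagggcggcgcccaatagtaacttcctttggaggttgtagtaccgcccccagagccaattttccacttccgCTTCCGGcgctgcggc
COX6A2: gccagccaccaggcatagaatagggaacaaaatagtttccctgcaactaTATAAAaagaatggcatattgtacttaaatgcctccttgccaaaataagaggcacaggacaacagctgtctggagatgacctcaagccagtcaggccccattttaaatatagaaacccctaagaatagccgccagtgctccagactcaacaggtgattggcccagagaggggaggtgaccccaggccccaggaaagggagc
COX8A: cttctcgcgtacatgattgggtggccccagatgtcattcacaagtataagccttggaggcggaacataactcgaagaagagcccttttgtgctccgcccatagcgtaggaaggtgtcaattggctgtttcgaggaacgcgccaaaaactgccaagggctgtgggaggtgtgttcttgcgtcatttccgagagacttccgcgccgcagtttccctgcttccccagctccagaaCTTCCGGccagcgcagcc
COX8C: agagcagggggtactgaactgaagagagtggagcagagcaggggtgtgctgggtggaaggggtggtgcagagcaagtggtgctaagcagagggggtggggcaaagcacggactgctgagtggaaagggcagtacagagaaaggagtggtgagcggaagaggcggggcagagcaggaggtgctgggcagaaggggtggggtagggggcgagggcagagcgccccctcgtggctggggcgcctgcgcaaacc
COX7B: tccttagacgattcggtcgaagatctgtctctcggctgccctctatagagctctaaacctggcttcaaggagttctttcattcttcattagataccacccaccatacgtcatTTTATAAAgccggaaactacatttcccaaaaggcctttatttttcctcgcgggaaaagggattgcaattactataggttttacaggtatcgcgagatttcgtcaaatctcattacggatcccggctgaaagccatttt
COX7B2: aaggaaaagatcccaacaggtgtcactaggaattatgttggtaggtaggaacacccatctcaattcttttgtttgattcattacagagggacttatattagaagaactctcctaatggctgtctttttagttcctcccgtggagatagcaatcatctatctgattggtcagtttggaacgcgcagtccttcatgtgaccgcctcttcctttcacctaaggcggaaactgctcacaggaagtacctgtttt
SDHB: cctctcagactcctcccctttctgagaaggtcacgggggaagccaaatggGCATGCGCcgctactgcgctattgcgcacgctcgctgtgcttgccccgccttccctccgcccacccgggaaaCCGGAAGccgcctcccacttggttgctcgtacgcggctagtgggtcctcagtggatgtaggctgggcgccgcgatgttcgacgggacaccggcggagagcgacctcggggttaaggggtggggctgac
ATP5G1: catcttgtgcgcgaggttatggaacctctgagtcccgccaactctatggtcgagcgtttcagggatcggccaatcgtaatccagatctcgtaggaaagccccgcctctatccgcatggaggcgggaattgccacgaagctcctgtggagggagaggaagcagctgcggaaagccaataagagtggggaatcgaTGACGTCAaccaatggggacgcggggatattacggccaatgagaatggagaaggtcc
ATP5G2: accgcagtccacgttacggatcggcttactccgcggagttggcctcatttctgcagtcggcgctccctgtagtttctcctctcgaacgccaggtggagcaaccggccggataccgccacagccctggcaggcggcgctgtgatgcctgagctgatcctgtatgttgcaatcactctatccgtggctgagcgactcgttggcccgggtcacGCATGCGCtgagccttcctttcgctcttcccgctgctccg
In COX6A1 the NRF1 letters occurred 174 and 218 bases before the start and the ETS letters 16 bases before it. The ETS letters stood 18 bases before the start of COX8A. COX6A2 held only TATAAA, 201 bases before its start, and COX8C held none of the 6 motifs. COX7B held only TATAAA, on both strands 136 and 138 bases before its start, and COX7B2 none. Of the common forms of the 9 pairs, 4 had the NRF1, ETS or YY1 letters before the start (COX6A1, COX6B1, COX8A and UQCRH) and 5 had none of them there, so the contrast seen for COX6A1 and COX8A did not hold for every pair. In windows reaching 50 bases past the start, 6 of the 9 held them, as COX4I1 and ATP5L had the ETS letters at or after it. Of the rarer forms, 5 had such a window and 0 held them. SDHB had the NRF1 letters at 200 and the ETS letters at 128 bases, and its window also held the YY1 and CREB letters at or after the start. The c-ring genes differed, with the CREB letters 57 bases before the start of ATP5G1 and the NRF1 letters 40 bases before that of ATP5G2.

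Most of the respiratory chain was expressed in HepG2, and at high levels. Of the 106 loci, 96 had a mean FPKM of at least 1, or 90.6% (83.3 to 95.4), against 51.4% of all named loci. At least 10 was reached by 86, or 81.1% (72.4 to 88.1), against 28.5%, and at least 100 by 40, or 37.7% (28.5 to 47.7), against 3.28%. The median FPKM was 75.0, against 1.24 over all named loci, 11.9 over those at 1 or more, 42.4 over 80 mitochondrial ribosomal protein loci and 69.1 over 40 proteasome subunit loci. Added up, the 106 loci held 2.37% of the named FPKM in run 1 and 2.32% in run 2. The runs differed little: of the 96 expressed loci, 92 (95.8%) were within 0.2 on the log2 scale, against 88.4% of the named loci at 1 or more and above 0 in both runs. The locus with the largest difference was UQCRHL, at 23.0 in run 1 and 13.5 in run 2. Of the 106 rows, 9 carried a further symbol, and their FPKM cannot be given to 1 gene alone.

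**Figure D1:**
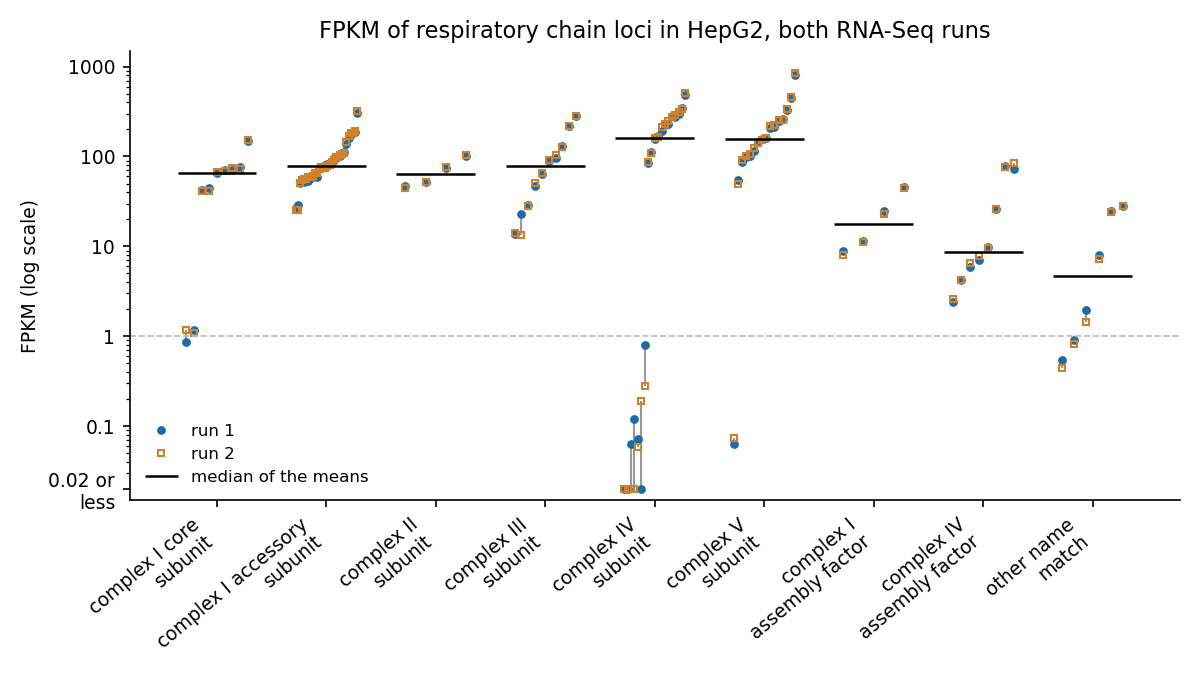
FPKM on a log axis of the 106 loci, grouped by complex and role, with a filled circle for run 1, an open square for run 2, a grey line between them and a black bar at the median of the means. Values of 0.02 or less, including 0, are drawn at 0.02, and the dashed line is at 1. The complex IV subunits split into 12 loci at 85.5 or more and 7 below 1, while assembly factors had lower medians (17.6 and 8.63) than every subunit group.

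Complex V, the ATP synthase, held the highest locus of the chain. ATP5E, which encodes the epsilon subunit of the catalytic head, was at 804 in run 1 and 846 in run 2. ATP5B, the catalytic beta subunit, was at 447 and 455, and ATP5A1, the alpha subunit beside it, at 333 and 339. The single-copy gamma subunit ATP5C1 was at 162 and 161. The delta subunit ATP5D was the lowest of the head, at 54.7 and 49.8. These 5 genes of the head kept the same order in both runs. The rotor ring is made by 3 genes with FPKM of 116 and 123 for ATP5G1, 146 and 142 for ATP5G2, and 158 and 151 for ATP5G3. Together they came to 420 and 416, with no gene standing far from the others. Peripheral subunits such as ATP5O (215 and 224) and ATP5H (208 and 219) lay in between. The median of the 16 complex V loci was 158.

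Complex IV, cytochrome c oxidase, had a median of 159 over 19 loci, but a wide split. COX7C, a small subunit with no paralog in the list, was at 485 in run 1 and 509 in run 2. COX6A1 was at 343 and 337, COX4I1, the regulatory subunit IV, at 297 and 311, and COX5B at 274 and 293. Expressed subunits went down to COX6C, at 111 and 110, and NDUFA4, a subunit once assigned to complex I, at 85.5 and 87.6. The 7 loci under 1 were the tissue-type or rare paralogs described below.

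Complex III had a median of 77.4 over 10 loci. UQCRH, the hinge protein, was highest at 283 in both runs. The core protein UQCRC2 followed at 219 and 216, and UQCRC1 at 131 and 127. UQCRB, which takes part in quinone binding, was at 29.1 and 28.3. A second UQCRC2 row at the same coordinates, numbered among loci of the other strand, stood at 13.7 and 14.1. Such second rows also existed for COX10 (2.38 and 2.57), NDUFS7 (0.864 and 1.19) and NDUFS8 (1.18 and 1.10). Since strand-specific counting is not stated in the sources used here, reads of a gene and of an overlapping row cannot be told apart.

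Complex I is the largest of the chain. The 30 accessory loci had a median of 79.2 and ranged from 26.1 to 312. NDUFAB1, the acyl carrier protein, was highest at 302 in run 1 and 321 in run 2. It was followed by NDUFA13 at 186 and 191, in a row that also carries the symbol YJEFN3. NDUFA10 was lowest at 26.9 and 25.4, next to NDUFV3 at 28.7 and 25.7. Among the core subunits, which carry the redox centres, NDUFV2 was at 147 and 154 and NDUFS1 at 76.8 and 73.0. The flavin-binding NDUFV1 was at 42.5 and 41.5. The 9 core rows had a median of 66.2.

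All 4 complex II subunits were expressed. The membrane anchor SDHD was at 101 and 103, the anchor SDHC at 74.1 and 75.5, SDHB at 51.7 and 52.0, and the flavoprotein SDHA at 47.4 and 44.7. The order of the 4 was the same in both runs. Assembly factors had lower medians than the subunit groups. The 4 for complex I had a median of 17.6, led by NDUFAF2 at 45.9 and 45.1 and NDUFAF3 at 24.7 and 22.9, and the 8 rows for complex IV one of 8.63. The copper chaperone COX17 (73.0 and 85.5) and COX11 (78.2 and 77.0), which delivers copper to the enzyme, were exceptions. COX10, which makes haem O, was at 7.14 and 7.88. COX19 was at 4.28 and 4.18.

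Where the common form of a subunit has a tissue-type or rare paralog, HepG2 expressed the common one. Of 9 pairs, the rarer member was under an FPKM of 1 in 8. COX6A2, the heart and muscle form, was listed at 0 in both runs, where COX6A1 was at 343 and 337. COX7A1, also a muscle form, was listed at 0 in run 1 and at 0.191 in run 2. The row of COX7A2, which also carries the symbol TMEM30A, was at 227 and 228. The lung form COX4I2 was at 0.0633 in run 1 and listed at 0 in run 2, while COX4I1 was at 297 and 311. In each of these pairs the levels differed far beyond the difference between runs.

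Testis forms were equally low. COX6B2 was at 0.0730 and 0.0581, against 190 and 211 for COX6B1. The ratio was 2601 in run 1 and 3626 in run 2, but it rests on a denominator near 0, and the log2 ratio of 11.37 at a pseudocount of 0.01 became 7.56 at a pseudocount of 1. Of the 8 low paralogs, 7 carry a status in the table that marks them as not tested (all but NDUFA4L2), so their exact levels are uncertain. COX7B2 was listed at 0 in both runs beside COX7B at 230 and 246, and COX8C was at 0.120 in run 1 and listed at 0 in run 2 beside COX8A at 282 and 277. ATP5L2, a copy of the membrane subunit gene ATP5L, was at 0.0632 and 0.0743. The row of ATP5L, which also carries the symbol UBE4A, was at 99.4 and 102. NDUFA4L2, known as a hypoxia-responsive gene, was the highest of the 8, at 0.807 and 0.281, against 85.5 and 87.6 for NDUFA4. Testis germ cell markers were at most 0.0109. Of the 6 striated muscle markers 5 were under 1, while ACTA1 was at 3.97 and 3.45. The exception was UQCRHL, at 23.0 and 13.5 against 283 and 283 for UQCRH. UQCRHL is a near-identical copy of UQCRH, so its FPKM is uncertain, and none of the 3 activation marks lay within 2 kb of its ends.

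**Figure D2:**
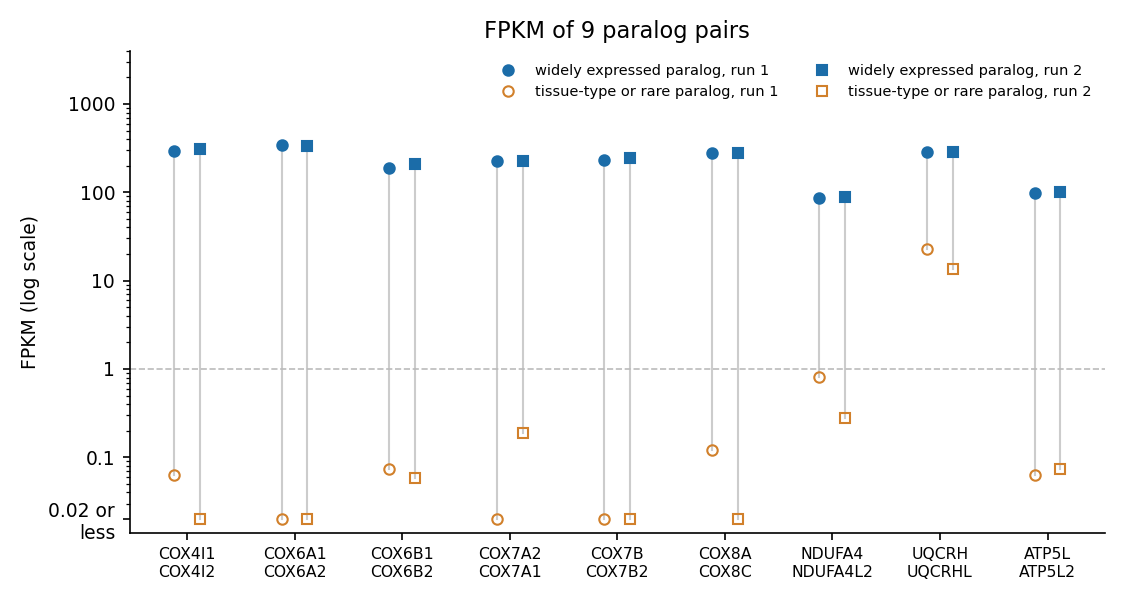
FPKM on a log axis of 9 pairs, with filled symbols for the widely expressed paralog and open symbols for its tissue-type or rare partner, circles for run 1 and squares for run 2. Values of 0.02 or less, including 0, are drawn at 0.02. In 8 pairs the rarer paralog lay under the dashed line at 1, and UQCRHL alone lay above it.

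The mitochondrial genome appears as 1 row, with a status that marks too many fragments and FPKM listed at 0, so the subunits encoded there have no value. Of 38 listed genes of the respiratory chain with other names, 30 were in the table, and 30 of these had an FPKM of at least 1. ETFB and ETFA, which pass electrons from fatty acid oxidation to the chain, were at 239 and 242 and at 165 and 173. USMG5, an ATP synthase subunit, was at 173 and 172. ETFDH was lowest, at 6.72 and 6.55. Of 13 nuclear regulators of mitochondrial genes, 11 reached 1. TFAM, which binds mitochondrial DNA, was at 55.7 and 60.9, whereas NRF1 itself was at 4.26 and 4.77, PPARGC1B at 1.06 and 0.851 and ESRRG listed at 0 in both runs.

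The active marks were present at most respiratory chain loci. A locus was counted for a mark when the midpoint of at least 1 peak lay within 2 kb of either of its ends. H3K4me3 was found at 84 of 106, or 79.2% (70.3 to 86.5), against 58.7% of all named loci and 84.8% of those at FPKM of at least 1. For H3K9ac the share was 79.2% (70.3 to 86.5), against 56.2% and 84.0%, and for H3K27ac 78.3% (69.2 to 85.7), against 51.4% and 81.0%. A trivalent position was at 80, or 75.5% (66.2 to 83.3), against 48.1% and 77.4%. The intervals of the respiratory chain loci contain the values of the expressed loci, so a difference from these was not detectable with 106 loci. H3K27me3 was at none of the 106, which allows up to 3.42%, against 9.82% of all named loci and 2.74% of the expressed ones. H3K9me3 was at 2, or 1.89% (0.229 to 6.65), against 3.90% and 2.59%. These 2 were NDUFB3 and NDUFA4, with 1 peak each at the end of the locus with the higher coordinate. The deposited lists hold 203848 marked positions, with 26271 H3K27me3 and 34534 H3K9me3 peaks. The paper reports more marked nucleosomes than this, so a peak missing here need not be missing from its full set.

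**Figure D3:**
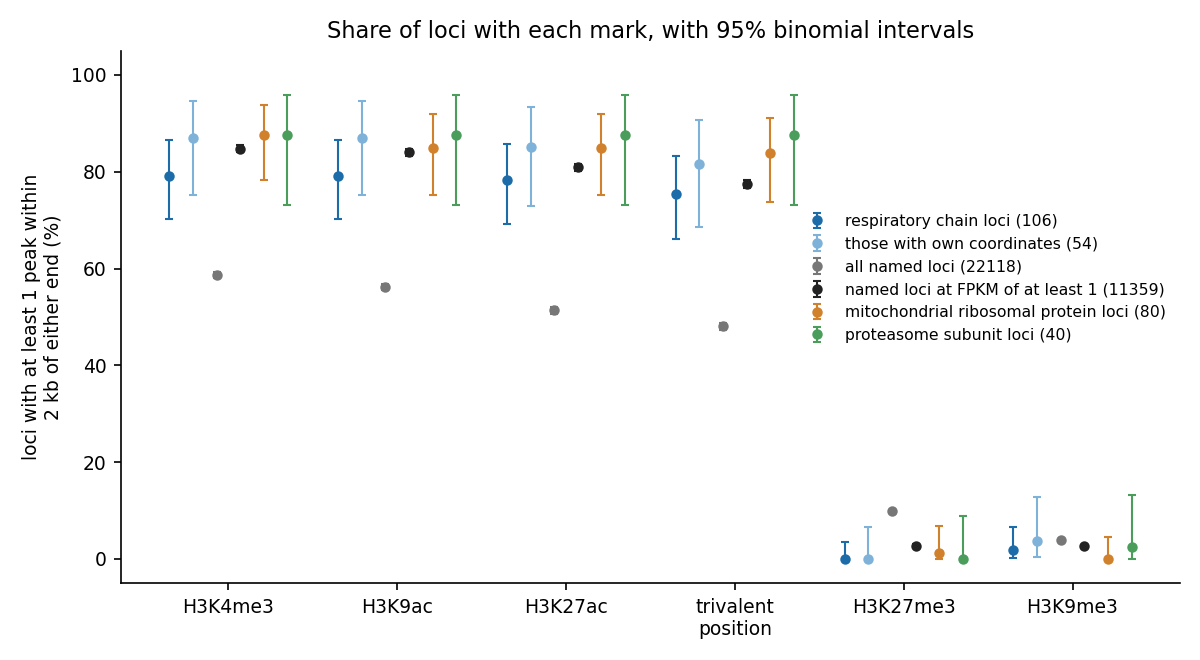
Percent of loci with at least 1 peak of a mark, or at least 1 trivalent position, within 2 kb of either end, with exact binomial 95% intervals. Respiratory chain loci lay above all named loci for the activation marks and near the named loci at FPKM of at least 1, the mitochondrial ribosomal protein loci and the proteasome loci.

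A locus in the table can be a stretch that several rows share, and its ends then need not be those of the named gene. This was so for 50 of the 106 rows. A further 2 rows, those of NDUFA7 and ATP5L, carried the symbol of a second gene, which left 54 loci with their own coordinates, of which 47 (87.0%, 75.1 to 94.6) had H3K4me3 at an end and 44 (81.5%, 68.6 to 90.7) a trivalent position. Of the subunits at FPKM of at least 1, 12 had no H3K4me3 within 2 kb of either end. Sharing of coordinates applied to 11 of these, namely ATP5F1, ATP5H, ATP5J, COX4I1, NDUFA6, NDUFB1, NDUFB11, NDUFB5, NDUFS1, SDHA and UQCR10. Inside their shared stretches they held from 5 to 13 H3K4me3 peaks and from 3 to 7 trivalent positions, so no lack of marks can be read for them. COX4I1, for example, shares chr16:85808918-85840607 (hg19) with COX4NB, with 9 H3K4me3 peaks inside. The twelfth was UQCRHL, at chr1:16133656-16138842, with 0 peaks inside.

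Among paralogs with their own coordinates, the silent ones had few or no activation marks. Over all named loci of this kind 55.8% had H3K4me3 at an end, and 93.0% of those at FPKM of at least 1. COX6A1 at chr12:120875903-120878529 had 4 H3K4me3, 3 H3K9ac and 1 H3K27ac peaks at its ends, while COX6A2 at chr16:31439054-31439721 had 0 of each. COX7B, whose start lies 379 bp from that of MAGT1 on the other strand, had 4, 5 and 3 and COX7B2 0 of each. COX7A1 and COX4I2 had 0 of each as well. COX6B1 had 3, 3 and 2 peaks, and COX6B2 had 2 H3K4me3 peaks with 0 H3K9ac and 0 H3K27ac. UQCRHL, with 23.0 and 13.5 FPKM, also had 0 of each, as given above. None of the 5 silent loci had an H3K27me3 or H3K9me3 peak of the deposited lists within 2 kb of an end. Over all named loci with their own coordinates these shares were 11.5% and 4.37%, so 5 loci are too few to show a lack. Inside the long COX7B2 locus both repressive marks were found. COX8C, NDUFA4L2 and ATP5L2 share their coordinates, and the 5, 4 and 4 trivalent positions at their ends cannot be assigned to them.

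The direction of transcription is not in the table and was inferred from the order in which loci are numbered. It gave the strand of the RefSeq gene for 45 of 45 loci with their own coordinates and a RefSeq match, and for 99.5% of 9540 such loci overall. Of 46 respiratory chain loci with their own coordinates and over 4 kb long, 38 had H3K4me3 at 1 end, and in 38 of these it was the inferred start. This was the general case. Where loci of this kind were marked at 1 end, it was the start in 97.1% of all named loci and 99.4% of the expressed ones. Both ends were marked in NDUFV2, ATP5D, UQCR11 and NDUFB6, and 4 had neither end marked. NDUFB6 had 4 H3K4me3 peaks at the start and 6 at the other end. The other 3 had fewer at the far end than at the start. Both ends were thus marked in 4 of 46, or 8.70%, against 3.71% of all named loci of this kind and 5.48% of the expressed ones.

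Of the 48 expressed loci with their own coordinates, 46 (95.8%) had H3K4me3 within 2 kb of the inferred start and 44 (91.7%) a trivalent position. Over all 6370 expressed loci of this kind the shares were 92.4% and 84.8%, and at FPKM of at least 10 they were 94.9% and 91.5%. The starts of the 48 loci held 920 nucleosome positions, of which 248 (27%) carried a mark. The share was 31.2% at the starts of the 6370 expressed loci and 33.6% at those at FPKM of at least 10. Trivalent positions made up 51.2% of the marked ones, near the 51.5% of the expressed loci. Positions with H3K4me3 and H3K9ac but no H3K27ac made up 22.6%, against 16.3%. H3K4me3 alone stood at 18.1% of the marked positions, against 19.6%. The number of trivalent positions per start was 2.65 ± 1.67 (SD over 48 loci), against 3.01 ± 2.19 over all expressed loci. It was 3.49 ± 2.16 over those at FPKM of at least 10, a level that 45 of the 48 reached. At least 3 were at 23 starts, or 47.9% (33.3 to 62.8), against 56.4% of the expressed loci. At FPKM of at least 10 the share was 66.0% (64.4 to 67.5), above the interval of the respiratory chain loci. For mitochondrial ribosomal protein loci the share was 69.2% (52.4 to 83.0) of 39, and for proteasome loci at FPKM of at least 1 it was 69.2% (48.2 to 85.7) of 26. These intervals overlap with that of the respiratory chain loci, and the difference was not tested.

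The marked positions of respiratory chain genes lay close to the start. In the first 400 bp past it, trivalent positions came to 1.15 per locus, against 0.814 over all expressed loci with their own coordinates. This was shared by mitochondrial ribosomal protein loci, at 1.31, and expressed proteasome loci, at 1.15. From 1 to 3 kb past the start the respiratory chain loci were below the expressed loci, with 0.125 against 0.596. Mitochondrial ribosomal protein and proteasome loci were low there too, at 0.103 and 0. At least 1 trivalent position in that stretch was found for 5 of 48 loci, or 10.4% (3.47 to 22.7), against 25.4% (24.3 to 26.5) of the expressed loci. Among these were NDUFS5, the accessory subunit, and COX5B. H3K4me3 reached into it at 13, or 27.1% (15.3 to 41.8), against 49.6% (48.4 to 50.8). The intervals do not overlap.

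Locus length moved with this difference, at a median of 11.1 kb for the respiratory chain loci and 31.9 kb for the expressed loci. Among loci of 4 to 20 kb, with medians of 10.6 and 11.4 kb, trivalent positions from 1 to 3 kb were at 8.82% (1.86 to 23.7) of 34 and 23.4% (21.5 to 25.4) of 1871, and H3K4me3 at 23.5% (10.7 to 41.2) and 44.7% (42.4 to 47.0). The H3K4me3 intervals then still did not overlap, while those of the trivalent positions did. The short reach was shared by other housekeeping sets: mitochondrial ribosomal protein loci had H3K4me3 there at 25.6% (13.0 to 42.1) of 39 and proteasome loci at 30.8% (14.3 to 51.8) of 26. The part of gene length in the difference was not tested further.

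**Figure D4:**
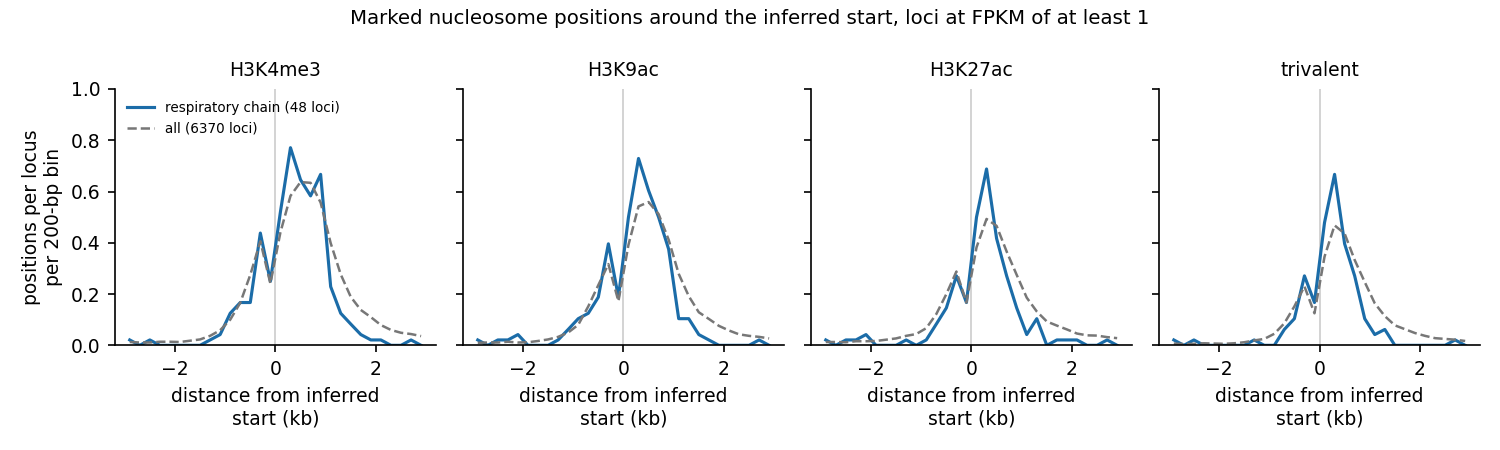
Mean number of nucleosome positions per locus with H3K4me3, H3K9ac, H3K27ac or all 3 (trivalent) in 200-bp bins of distance from the inferred start, for 48 respiratory chain loci (solid) and 6370 loci (dashed), all with their own coordinates and an FPKM of at least 1. The solid lines are higher in the bin from 200 to 400 bp (0.667 against 0.468 for trivalent positions) and lower from 1 to 2 kb.

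Single genes showed how far the pattern varied. NDUFS5, a small accessory subunit at chr1:39491336-39500308, had the most trivalent positions of the loci with their own coordinates, 8, and an FPKM of 183 and 184. NDUFB3 had 6 and an FPKM of 76.0 and 74.6, with the start of FAM126B 64 bp away. COX6A1, with the highest FPKM of the 54, had a single trivalent position. NDUFV1 had 6 H3K4me3 and 6 H3K9ac peaks but 0 of H3K27ac, at an FPKM of 42.5 and 41.5. COX19 had 0 H3K4me3 peaks at its ends, although 7 lay within its locus. Counted over both ends of shared stretches, NDUFB9 had 11 trivalent positions, UQCRQ 9 and ATP5E 9, which neighbours may contribute.

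As was common among silent loci, the 6 respiratory chain ones with their own coordinates had no trivalent position at the start. Among the other respiratory chain loci the number of positions did not order the levels. Of the 54 loci with their own coordinates, 10 had no trivalent position at the start, and 6 of these were under an FPKM of 1. The 21 loci with 1 to 2 had a median FPKM of 81.3, from 11.3 to 340. The 18 with 3 to 4 had a median of 74.6, from 6.19 to 312, and the 5 with 5 or more one of 151, from 75.3 to 184. The ranges of these classes overlap. Over all loci with their own coordinates the medians were 0.0151 with none, 8.41 with 1 to 2, 13.3 with 3 to 4 and 17.8 with 5 or more. With as many trivalent positions, the respiratory chain loci thus had the higher median in each class. The loci compared include silent ones, with 969 of 7631 at FPKM of at least 1 where there was none and 1807 of 2017 with 1 to 2. Mitochondrial ribosomal protein and proteasome loci were not divided by class. The higher medians are thus not shown to be particular to the respiratory chain. The lack of trivalent positions at silent starts was general. Of 13369 loci with their own coordinates, 6999 were under an FPKM of 1. Of the 5738 with a trivalent position at the start, 5401 were at 1 or more.

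**Figure D5:**
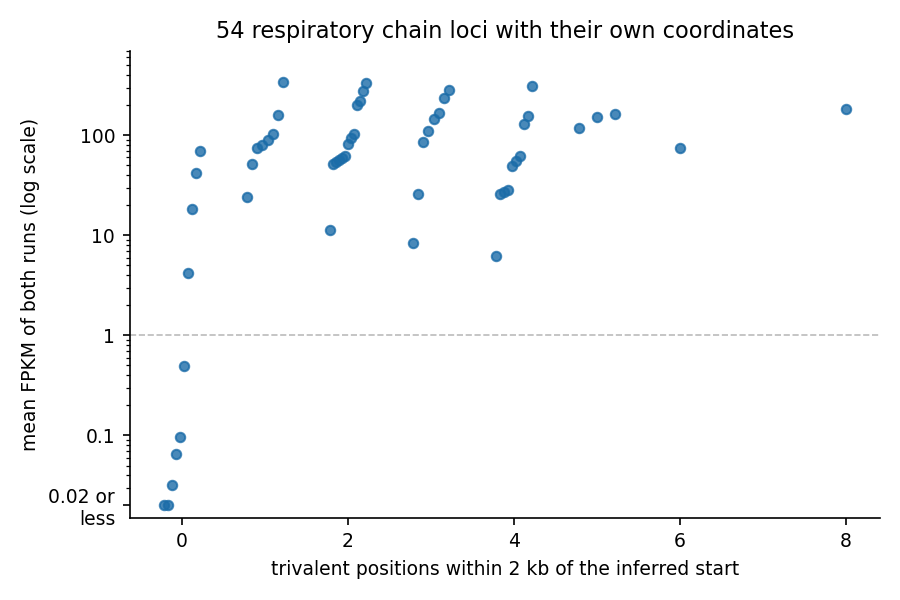
Mean FPKM of both runs on a log axis against the number of trivalent positions within 2 kb of the inferred start, for the 54 respiratory chain loci with their own coordinates. Each point is 1 locus, points of the same number are spread sideways, values of 0.02 or less are drawn at 0.02, and the dashed line is at 1. All points under the line have 0 trivalent positions, and from 1 position on the FPKM range from 6.19 to 340.

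Some starts are shared with a neighbour that runs the other way. Another start on the other strand lay within 1 kb for 7 of the 48 expressed loci with their own coordinates, or 14.6% (6.07 to 27.8), against 7.83% of all expressed loci of this kind. The share was 15.4% (5.86 to 30.5) for mitochondrial ribosomal protein loci and 15.4% (4.36 to 34.9) for expressed proteasome loci. The partners included HAUS1 for ATP5A1, MAGT1 for COX7B, MORN5 for NDUFA8, AKAP3 for NDUFA9 and FAM126B for NDUFB3. AKAP3, a sperm protein gene, was at a mean FPKM of 0.135 where NDUFA9, whose start is 54 bp away, was at 54.1 and 56.5. MORN5 was listed at 0, with its start 91 bp from that of NDUFA8. Marks at such a start, those of COX7B and NDUFB3 included, cannot be given to one gene of the pair.

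Promoter sequences were matched for 81 of the 101 symbols, each with RefSeq's first listed window of 300 bases, 250 before and 50 after the start. The NRF1 letters GCGCATGC were in 16 of the 81, or 19.8% (11.7 to 30.1), against 5.82% of the genes at FPKM of at least 1 and 3.27% of all 27305 promoters. Among them were SDHB and SDHD of complex II, COX5B and COX6A1 of complex IV, and ATP5C1, ATP5G2, ATP5I and ATP5J of complex V. No complex III subunit had them in its window, of 7 matched. Mitochondrial ribosomal protein genes had them at 8.20% (2.72 to 18.1) and proteasome genes at 5.88% (0.720 to 19.7). The ETS letters CCGGAAG were in 29.6% (20.0 to 40.8), against 20.4% and 10.7%, including UQCR11, UQCRH and UQCRQ of complex III. They were in 39.3% (27.1 to 52.7) of the mitochondrial ribosomal protein genes and 35.3% (19.7 to 53.5) of the proteasome genes. The YY1 letters AAGATGGC were in 14.8% (7.90 to 24.4), against 5.95% and 3.03%, and in 31.1% (19.9 to 44.3) of the mitochondrial ribosomal protein genes and 11.8% (3.30 to 27.5) of the proteasome genes.

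At least 1 of the NRF1, ETS and YY1 motifs was in 48.1% (36.9 to 59.5) of the respiratory chain windows, against 28.9% of the expressed genes and 15.6% of all promoters. This was shared by the mitochondrial ribosomal protein genes, at 60.7% (47.3 to 72.9), and the proteasome genes, with 17 of 34 (32.4 to 67.6%). At least 2 of them were in 11 windows, those of NDUFA6, NDUFAF4, NDUFS7, SDHB, SDHD, COX10, COX17, COX5B, COX6A1, ATP5I and ATP5J. The share with at least 2 was not computed for other genes, so these 11 cannot be read as a trait of the respiratory chain. The SP1 letters GGGGCGGG went the other way, at 17.3% (9.78 to 27.3) against 38.9% of the expressed genes, 22.7% of all, 42.6% of the mitochondrial ribosomal protein genes and 29.4% of the proteasome genes. The windows held a median of 22 CpG, against 26 in the expressed genes and 14 in all promoters. TGACGTCA was in 6.17% (2.03 to 13.8), against 3.47% and 1.98%, and TATAAA in 8.64% (3.55 to 17.0), against 5.55% and 12.0%. Of the 5 matched genes under an FPKM of 1, which are COX6A2, COX6B2, COX7B2, COX8C and NDUFA4L2, 0 had the NRF1, ETS or YY1 letters, and with 5 genes a share of up to 52.2% is allowed. A match is a run of letters and does not show that a factor was bound.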

How the data were processed

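HepG2 was profiled in 7 samples. Per the labels, native chromatin was digested with micrococcal nuclease for the nucleosome map, and crosslinked, sonicated chromatin was used for ChIP-Seq. The submitters' processing notes name hg19, BWA for both, and TopHat2 2.1.0, Bowtie and HOMER 4.7 for RNA-Seq. The authors called nucleosome positions with DANPOS and peaks at them with NUCLIZE, and deposited coordinates and position identifiers without counts or signal. The authors deposited RNA levels as FPKM in 2 columns of 1 sample, in the layout of Cuffdiff. The mean was used as 1 replicate, and columns of the authors' own comparison of the runs (fold changes, p-values) were not used. Peaks were assigned to positions by identifier.

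Midpoints within 2 kb of a locus end were counted, shares have Clopper-Pearson 95% intervals, and no p-value was computed because each assay has 1 sample. Strand was inferred from locus numbering. Named genes were the 5 highest and 5 lowest subunits, all paralogs of the pairs, the 2 highest loci of each group, expressed subunits without H3K4me3, loci with a repressive mark and those with the most trivalent positions; others, among them those in the promoter and neighbour counts, were named after their values were seen. The loci, lists and comparisons were chosen with earlier results of these data known. Of the 101 symbols, 81 matched RefSeq promoters of GRCh38.p14, 15 of them through synonyms, and no coordinate was carried between builds. Protein identity between paralogs was planned and not analysed here. Counting was tested on simulated loci. Alternatives covered the runs, limits, windows, overlap, the inferred start and rows with their own coordinates. The software was pandas 2.3.3 with numpy 2.4.6, scipy 1.17.1 and matplotlib 3.10.9 under Python 3.11.15.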

Additional observations from a re-analysis of the deposited data

How the results depend on the processing

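Of 76 recomputed values under the alternatives, 56 stayed and 20 moved. Shares stayed if within the interval of the main share, and median FPKM and log2 ratios if within the difference between runs. The median of trivalent positions stayed only if equal to the main value. Only the log2 paralog ratios could be counted as reversed. These large ratios were not, which says nothing of the other values. The share of loci at FPKM of at least 1 moved to 97.0% among loci at 0.1 or more, which leaves out 7 low loci by construction. The median FPKM was 74.3 in run 1 alone, 72.6 for loci with their own coordinates, 87.9 for subunits and 77.6 for loci at 0.1 or more, against 75.0. With own coordinates, H3K4me3 and H3K9ac were each at 87.0%. When peaks anywhere in the locus or within 2 kb of it counted, an alternative chosen after seeing the data, the shares were 94.3% for H3K4me3, against 98.0% of the named loci at FPKM of at least 1, and 93.4% for H3K9ac, against 97.9%. H3K27ac was then at 92.5%, against 95.9%, and trivalent positions at 92.5%, against 93.6%. The repressive marks were at 4.72% (H3K27me3), against 12.1%, and 12.3% (H3K9me3), against 25%. The median of trivalent positions per locus was 3.50 within 5 kb, 2.5 with any overlap, 2.5 for subunits and 4 anywhere in the locus, against 2. With a pseudocount of 1 in place of 0.01, the median log2 fold over the 4 paralog pairs above 0 in both runs was 6.20, against 8.80. With any listed promoter window of a gene, also chosen later, the NRF1 letters were in 21.0% of the respiratory chain genes and 6.76% of the expressed genes. No paired analysis was possible because each assay has 1 sample and no comparison comes from a test. Depth is unknown, so a stricter peak threshold could not be set.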
